A study of Mus musculus with 6 samples.

Results

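The 43 genes described here drive cells from G1 through DNA replication into mitosis. They are a list of cyclins, cyclin-dependent kinases, E2F factors, replication proteins and mitotic regulators, given by symbol, and all 43 were found once among the 55471 Ensembl identifiers of the table. Polyadenylated RNA came from endosteal mesenchymal stromal cells, stromal cells of the inner bone surface, of C57BL/6J mice. Libraries of the group Bap1 WT (3 libraries) came from mice with the floxed allele alone, Bap1fl/fl. Those of the group Bap1 cKO (3 libraries) came from Prx1-cre;Bap1fl/fl mice, in which Cre under the limb mesenchyme promoter Prx1 can delete Bap1, a histone H2A deubiquitinase. Both groups therefore carry the floxed allele, and the control has no Cre. The labels give neither the animals' age nor whether the libraries of a group are separate animals, so the tests weigh differences only against the spread among these libraries, which may be technical.

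Cyclins bind and switch on cyclin-dependent kinases. In G1, D cyclins with Cdk4 or Cdk6 phosphorylate the retinoblastoma protein, which frees E2F factors to switch on genes for DNA synthesis, and cyclin E with Cdk2 carries the cell into S phase. Cyclin A and cyclin B with Cdk1 then drive G2 and mitosis, whose genes are switched on late in the cycle by Foxm1 and related factors. Stromal progenitors of bone divide as they expand and leave the cycle as they become osteoblasts or adipocytes.

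The values are RPKM, fragments scaled by gene length and by depth, so levels can be compared between genes. Values of low genes step by what 1 fragment is worth, and these steps gave depths of 13.1 to 14.8 megafragments for WT. For cKO replicates 1, 2 and 3 they gave 13, 14.2 and 22.1 megafragments. For a transcript of 1 effective kilobase, 3 fragments then gave 0.136 to 0.231 RPKM, lower in longer transcripts, a floor that covers counting error only. Bap1 RPKM was 22.8, 22.72 and 24.01 in WT and 28.27, 25.16 and 22.99 in cKO replicates 1 to 3. These values do not check the labels, because reads of a shortened transcript, if made, would be counted too. Whether one is made was not tested. Against the cell type label, the summed RPKM of 10 stromal markers was 2617 to 2763 in WT and 132.7 to 235.6 in cKO libraries. Prrx1 and Twist1 were present in all 6 libraries, Pdgfra was 1.78-fold higher in cKO, and Lum was at 0 in all. A list of 10 kidney tubule markers summed to 0.44 to 0.82 RPKM in WT and 125.9 to 247.2 in cKO libraries, nearly all of it Pax8, with Umod at 0 throughout. Of 10 haematopoietic markers 9 stayed at or under 1 RPKM in every library, as did 5 of 5 endothelial markers. These marker differences run with every comparison of the groups below, and their part in it was not tested.

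The cycle genes remained active in both groups, and more of them were lower than higher in the libraries labelled cKO. Of the 43 genes, 21 were lower, 10 were higher and 12 were not called (limma on log2(RPKM + 1), Benjamini-Hochberg adjusted p under 0.05 over the 12223 genes whose mean reached 1 RPKM). Below, ± after an RPKM mean is the SD of 3 libraries, and the interval of a log2 difference is limma's 95% confidence interval. All 43 genes passed that minimum, 41 of them in both groups. Cdk6 reached it only through the WT libraries and E2f2 only through the cKO libraries, and among the other 41 genes 20 were lower and 9 higher. Among all genes tested 26.5% were called lower and 34.7% higher, 61.2% in all, so the 48.8% lower and 23.3% higher of the list stand beside a very large background. With each chromosome centred on the median of its genes, 24 of the 43 were lower and 1 was higher, against 29.3% and 26.5% of all tested genes in that fit. The median log2 difference, cKO minus WT, was −0.38 over the 43 genes and 0.09 over all tested genes. Groups did not overlap for 23 of the 43 genes in the lower direction and 11 in the higher, against 29.8% and 39.2% of all genes tested. In bulk RNA, fewer cycling cells and less RNA per cycling cell cannot be told apart. An exact permutation test of 3 libraries against 3 cannot go below p = 0.1, so the calls rest on limma's shared estimate of spread.

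**Figure D1:**
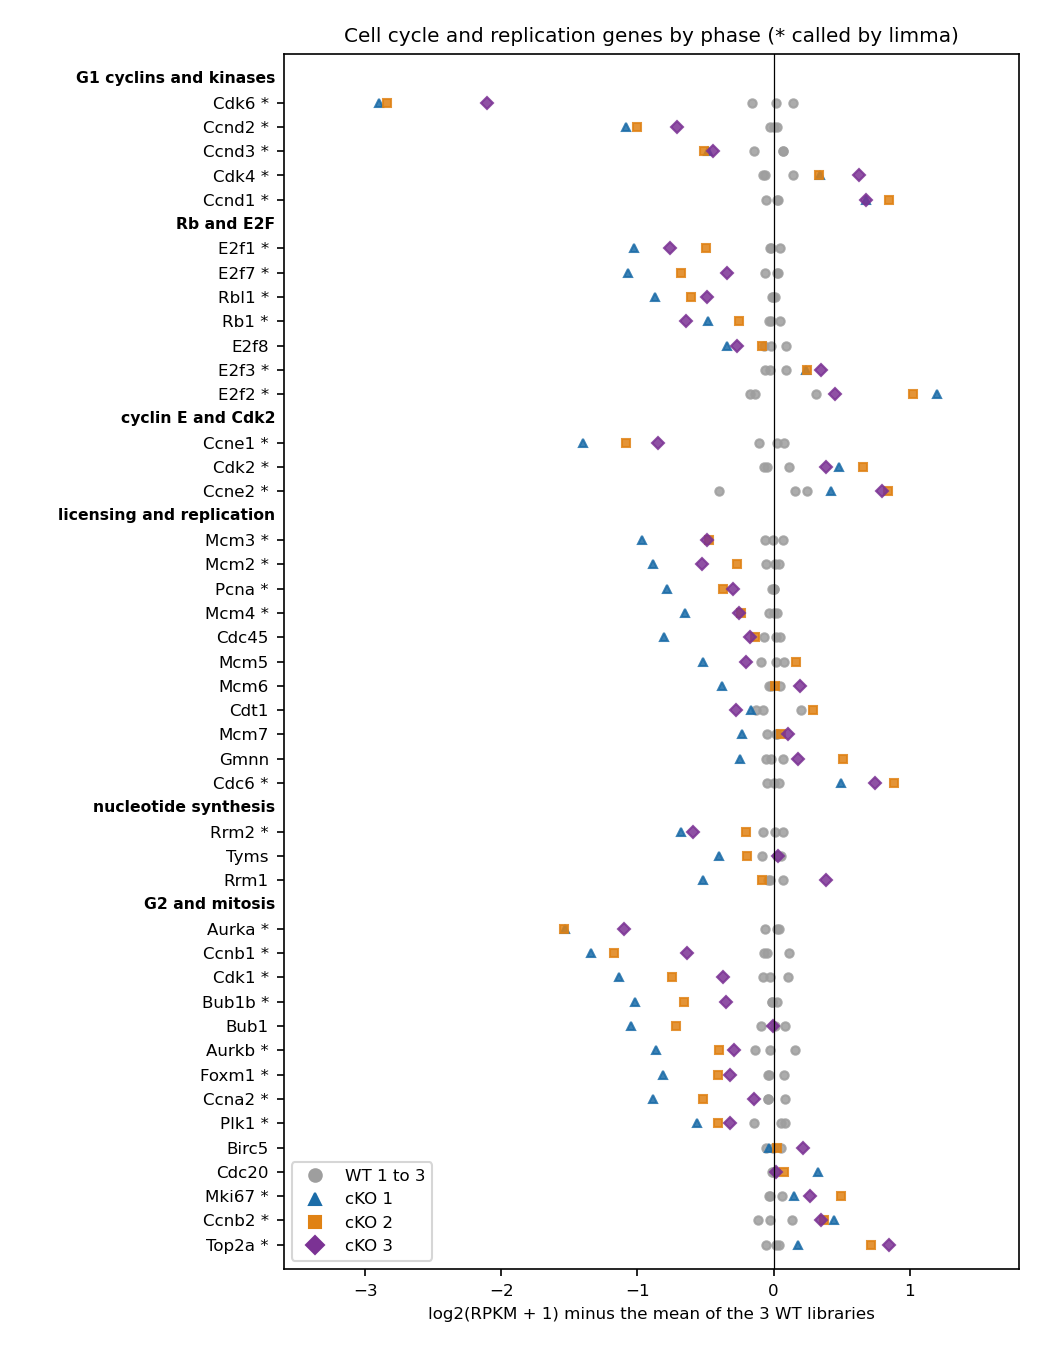
Difference of each library from the mean of the 3 WT libraries on the log2(RPKM + 1) scale (x axis) for the 43 genes (y axis), grouped by phase and sorted by log2 difference; circles are WT and triangles, squares and diamonds are cKO replicates 1 to 3. Cdk6 lies farthest to the left, with cKO differences of −2.90, −2.84 and −2.11, and stars mark the 31 called genes.

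Among the G1 genes the D cyclins went in opposite directions. Ccnd1, cyclin D1, stood at 60.92, 57.45 and 60.67 RPKM in WT replicates 1 to 3 and at 96.13, 108.21 and 96.01 in cKO replicates 1 to 3. Ccnd2, cyclin D2, went the other way, from 102.67, 99.45 and 101.13 RPKM in WT to 47.06, 50.04 and 61.31 in cKO. In both genes the groups lay well apart, and the WT libraries differed little among themselves. Ccnd1 rose 1.68-fold (log2 difference 0.73 ± 0.08 SE, limma adjusted p = 0.000279) and Ccnd2 fell 1.91-fold (−0.93 ± 0.11, limma adjusted p = 0.000434). Ccnd3, cyclin D3, fell 1.41-fold from 50.7 ± 4.27 to 36 ± 0.82 RPKM (SD, n = 3 libraries per group; limma adjusted p = 0.00285). Summed RPKM of the D cyclins was 202.7 to 216.74 in WT and 179.11 to 194.22 in cKO libraries. Within that sum Ccnd1 took 28.1 to 28.3% in WT and 49.4 to 55.9% in cKO libraries, while Ccnd2 went from 47 to 49.1% down to 25.9 to 31.6%.

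**Figure D2:**
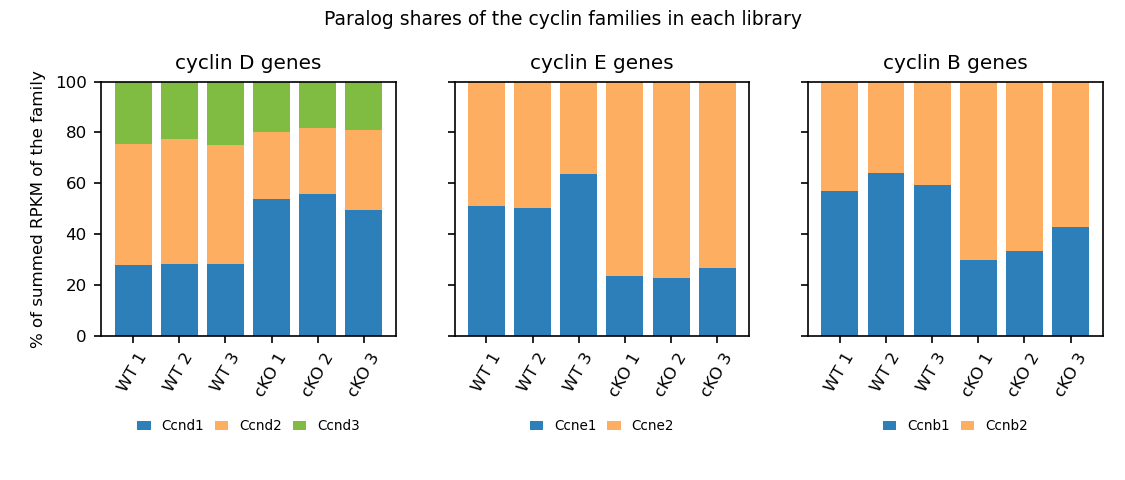
Share of each paralog (y axis, % of the family's summed RPKM) in every library (x axis) for the cyclin D, E and B genes, stacked to 100%. Ccnd1 takes 49.4 to 55.9%, Ccne2 73.3 to 77.3% and Ccnb2 57 to 70.1% in the cKO libraries, above every WT library in each family.

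Cdk6 had the largest difference of the 43 genes. This partner kinase of the D cyclins stood at 7.41, 8.48 and 9.36 RPKM in WT replicates 1 to 3 and at 0.26, 0.31 and 1.18 in cKO replicates 1 to 3. All 3 cKO values lie below every WT value. Cdk6 fell 14.4-fold from 8.42 ± 0.98 to 0.58 ± 0.52 RPKM (log2 difference −2.61 ± 0.24 SE, limma adjusted p = 0.000169), and 29.5-fold without cKO replicate 3. Cdk4, the other D cyclin kinase, was at 290.95, 334.71 and 287.04 RPKM in WT and 384.75, 383.75 and 469.81 in cKO libraries, a 1.36-fold rise (limma adjusted p = 0.0111). Cdk4 was 30.7 to 39.5 times as high as Cdk6 in WT libraries and 398 to 1480 times as high in cKO libraries. Cdk6 reached the minimum mean only through the WT libraries. Its folds and the cKO ratios rest on cKO values of 0.26 to 1.18 RPKM, a range where depth limits the estimates most. All 5 G1 genes were called, beside 61.2% of all genes tested, and they kept their calls without any 1 library. With chromosomes centred the 3 falls kept their calls. Ccnd1 and Cdk4 were then not called (log2 differences 0.09 and 0.24, limma adjusted p = 0.343 and 0.0924). Tspan31 overlaps Cdk4 on the opposite strand and went from 78.64 to 85.75 RPKM in WT to 133.04 to 189.27 in cKO libraries. Whether the authors' counting used strand is not given in the sources used here, so the reads of Cdk4 and Tspan31 may not be separate.

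Of 7 retinoblastoma family and E2F genes 4 were lower and 2 higher. These shares of 57.1% and 28.6% stand beside 26.5% and 34.7% of all genes tested. Without 1 library in turn, 2 to 4 were lower by limma and 0 or 1 higher (1 or 2 higher at an unadjusted p under 0.05). E2f1, an activator of S phase genes and itself an E2F target, was at 22.15, 22.26 and 23.43 RPKM in WT and 10.58, 15.72 and 12.93 in cKO replicates 1 to 3. It fell 1.73-fold (log2 difference −0.76 ± 0.14 SE, limma adjusted p = 0.00355) with no overlap of the groups. Rbl1, the pocket protein p107, fell 1.64-fold from 12.2 ± 0.12 to 7.44 ± 1.12 RPKM (limma adjusted p = 0.00344). The repressor E2f7 fell 1.68-fold from 10.5 ± 0.43 to 6.23 ± 1.8 RPKM (limma adjusted p = 0.0163), and Rb1, the retinoblastoma gene, fell 1.47-fold from 5.19 ± 0.17 to 3.53 ± 0.62 RPKM (limma adjusted p = 0.0225). The related repressor E2f8 was not called, at 7.77 ± 0.52 and 6.49 ± 0.7 RPKM, with an interval of the log2 difference from −0.50 to 0.04. It was lower when scaled by trimmed mean of M values, median of ratios or quantiles (limma adjusted p = 0.0394, 0.0368 and 0.0425).

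The activators E2f2 and E2f3 were higher. E2f2 was low throughout, at 0.79, 0.31 and 0.28 RPKM in WT and 2.31, 1.94 and 0.97 in cKO libraries (3.78-fold, and 5.9-fold without WT replicate 1). Its limma adjusted p was 0.0204, and 0.019 at a minimum mean of 0.1 RPKM, which E2f2 reached in both groups. Without cKO replicate 1 or 2 its mean was under 1 RPKM and it was not tested. E2f3 went from 8.47 ± 0.54 to 10.5 ± 0.51 RPKM (1.24-fold, limma adjusted p = 0.0388). The call of E2f3 was lost without any 1 of the 6 libraries and under 3 other scalings (limma adjusted p = 0.133, 0.108 and 0.0623 without WT replicates 1 to 3, 0.0567, 0.0624 and 0.0641 without cKO replicates 1 to 3, and 0.131, 0.137 and 0.147 with trimmed mean of M values, median of ratios and quantiles). For E2f2 the call was lost when WT replicate 2 (0.0682 by limma, adjusted) or 3 (0.0698) was left out. Rb1 lost its call without WT replicates 1, 2 or 3 or cKO replicate 1 (limma adjusted p = 0.079, 0.0627, 0.064 and 0.0547), and E2f7 in the fits lacking WT replicate 1 (0.0567) or 3 (0.0559). E2f1 and Rbl1 kept theirs in each of these fits.

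The cyclin E genes, which start S phase with Cdk2, also went in opposite directions, from nearly even levels in WT replicates 1 and 2. Ccne1 was at 18.39, 16.67 and 19.02 RPKM in WT and 6.2, 7.98 and 9.57 in cKO replicates 1 to 3, a 2.28-fold fall (log2 difference −1.11 ± 0.15 SE, limma adjusted p = 0.001). Ccne2 was at 17.58, 16.53 and 10.86 RPKM in WT and 19.98, 27.15 and 26.22 in cKO replicates 1 to 3, a 1.63-fold rise (limma adjusted p = 0.0241). WT replicate 3 was low for Ccne2, and the groups did not overlap in either gene. The sum of the cyclin E genes overlapped, at 29.88 to 35.97 RPKM in WT and 26.18 to 35.79 in cKO libraries. Their ratio, Ccne2 over Ccne1, was 0.571 to 0.992 in WT and 2.74 to 3.4 in cKO libraries. Cdk2, their kinase, rose 1.44-fold from 37.9 ± 2.71 to 54.4 ± 5.35 RPKM (limma adjusted p = 0.00425). Ccne2 lost its call without WT replicate 3, cKO replicate 2 or cKO replicate 3 (limma adjusted p = 0.0509, 0.069 and 0.0503). Ints8 overlaps Ccne2 on the opposite strand, at 17.87 to 21.29 RPKM in WT and 27.98 to 36.46 in cKO libraries.

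Among 11 genes of origin licensing and replication, 4 were lower, 1 was higher and 6 were not called. The 45.5% called in either direction was under the 61.2% of all genes tested. The MCM2-7 proteins form the ring-shaped helicase that unwinds DNA. Mcm3 was at 79.35, 76.14 and 83.35 RPKM in WT and 40.32, 57.03 and 56.44 in cKO replicates 1 to 3, and Mcm2 at 57.69, 54.93 and 58.74 against 30.51, 47.25 and 39.37. The groups stayed apart in both genes, with cKO replicate 1 lowest. Mcm3 fell 1.55-fold (log2 difference −0.64 ± 0.14 SE, limma adjusted p = 0.00755), Mcm2 1.46-fold (limma adjusted p = 0.0182) and Mcm4 1.3-fold, from 50 ± 0.99 to 38.5 ± 6.12 RPKM (limma adjusted p = 0.0333). The other subunits were not called. Mcm5 was at 78.4 ± 4.75 and 70 ± 17 RPKM, Mcm6 at 69.2 ± 1.99 and 67.4 ± 13.3, and Mcm7 at 64 ± 1.85 and 63.4 ± 7.89. The interval of the log2 difference ran from −0.60 to 0.22 for Mcm5, from −0.40 to 0.29 for Mcm6 and from −0.27 to 0.22 for Mcm7. A fall as large as that of Mcm2 lies inside the interval of Mcm5 and outside those of Mcm6 and Mcm7. The highest of the 6 was 1.55 to 1.66 times the lowest in WT libraries and 1.78 to 2.08 times in cKO libraries. Summed RPKM of the 6 was 386.61 to 404.55 in WT and 263.89, 370.94 and 353.83 in cKO replicates 1 to 3.

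**Figure D3:**
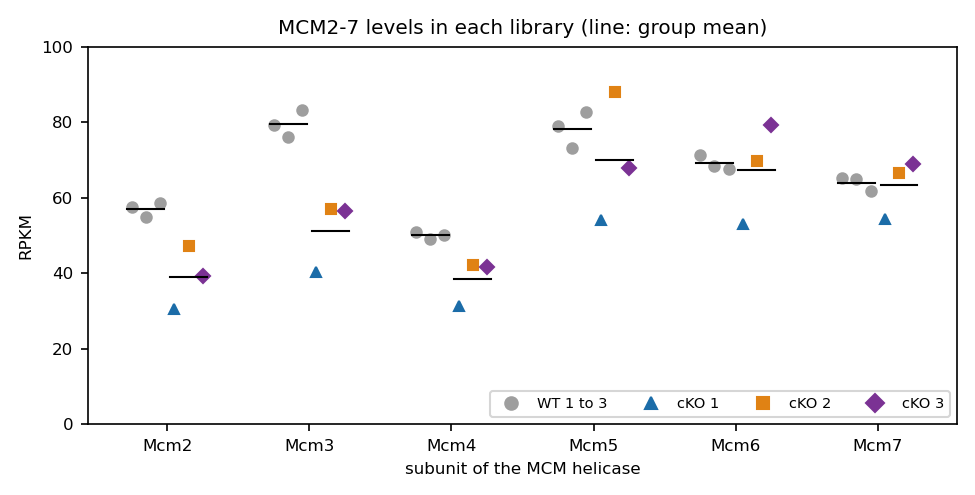
RPKM (y axis) of the 6 MCM helicase subunits (x axis) in each library; circles are WT, triangles, squares and diamonds are cKO replicates 1 to 3, and lines are group means of 3 libraries. The cKO triangle of replicate 1 is the lowest point for all 6 subunits, while replicates 2 and 3 lie below the WT libraries for Mcm2, Mcm3 and Mcm4.

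Factors that load and fire the helicase went different ways. Cdc6, which loads MCM at origins, was at 10.98, 11.27 and 10.55 RPKM in WT and 15.82, 21 and 19.01 in cKO replicates 1 to 3, a 1.7-fold rise (log2 difference 0.71 ± 0.12 SE, limma adjusted p = 0.00224). Its partner Cdt1 was at 21.7 ± 2.9 and 21.2 ± 4.84 RPKM, and Gmnn, the inhibitor of Cdt1, at 32.1 ± 1.45 and 36.5 ± 9.56 RPKM. Neither was called, and both overlapped between the groups. The predicted gene Gm20388, named because it overlaps Cdt1 on the same strand, went from 22.79 to 35.45 RPKM in WT to 6.3 to 10.33 in cKO libraries, so the split of reads between the pair is uncertain. Cdc45, which activates the helicase, was at 18.9 ± 0.85 and 14.8 ± 3.74 RPKM and missed the threshold (limma adjusted p = 0.126; 0.0408 with sample weights). Pcna, the sliding clamp of DNA polymerases, was at 220.98, 220.1 and 218.6 RPKM in WT and 127.15, 169.74 and 178.61 in cKO libraries, a 1.39-fold fall (limma adjusted p = 0.0162). Its copy Pcna-ps2 held at most 2.76 RPKM.

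Several replication calls depended on which libraries were in the fit. Without WT replicates 1, 2 and 3 in turn, 1, 2 and 1 of the 11 genes were lower. Mcm4 lost its call in these fits (limma adjusted p = 0.0992, 0.0788 and 0.0904), as did Pcna (0.0546, 0.0522 and 0.0502). Leaving out WT replicate 1 or 3 ended the call of Mcm2 (adjusted p by limma 0.06 and 0.0613), and Mcm5 passed without cKO replicate 2 (0.0426). Mcm3 and Cdc6 kept theirs in every such fit.

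Of 3 nucleotide synthesis genes 1, Rrm2, was lower (33.3%, beside 26.5% of all genes tested). Rrm2, the cell cycle controlled subunit of ribonucleotide reductase, was at 183.13, 164.94 and 175.71 RPKM in WT and 108.8, 151.37 and 115.72 in cKO libraries, a 1.39-fold fall (limma adjusted p = 0.0159) with no overlap. Its partner Rrm1 was at 56.98, 53.23 and 52.59 RPKM in WT and 37.51, 51.02 and 71.1 in cKO replicates 1 to 3, on both sides of the WT range (limma adjusted p = 0.785). Tyms, thymidylate synthase, was at 60.5 ± 3.19 and 53.5 ± 8.15 RPKM (limma adjusted p = 0.22). Leaving out WT replicate 1 or 3 also ended the call of Rrm2 (adjusted p by limma 0.0611 and 0.0524), and Tyms passed without cKO replicate 3 (0.0269).

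Of 14 genes of G2 and mitosis 8 were lower, 3 were higher and 3 were not called. These shares of 57.1% lower and 21.4% higher stand beside 26.5% and 34.7% of all genes tested. Aurka, the Aurora A kinase of centrosomes and spindle poles, led the fall, from 43.22, 40.61 and 43.64 RPKM in WT to 14.04, 13.93 and 19.29 in cKO replicates 1 to 3. It fell 2.7-fold (log2 difference −1.39 ± 0.13 SE, limma adjusted p = 0.00022). Ccnb1, cyclin B1, was at 53.94, 60.36 and 52.97 RPKM in WT and 21.39, 24.17 and 35.5 in cKO libraries, a 2.06-fold fall (limma adjusted p = 0.00278). Its paralog Ccnb2 was at 40.47, 33.89 and 35.99 RPKM in WT and 50.17, 47.84 and 47.09 in cKO libraries, a 1.31-fold rise (limma adjusted p = 0.00794). The cyclin B genes thus separated in opposite directions with no overlap, and Ccnb2 over Ccnb1 was 0.561 to 0.75 in WT and 1.33 to 2.35 in cKO libraries. Their kinase Cdk1 was at 271.4, 238.14 and 246.87 RPKM in WT and 113.82, 149.65 and 194.48 in cKO libraries, a 1.65-fold fall (limma adjusted p = 0.012). These 3 falls kept their calls without any 1 library.

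The remaining mitotic genes that fell did so by 1.37-fold to 1.61-fold. The checkpoint kinase Bub1b fell from 20.6 ± 0.36 to 12.8 ± 3.15 RPKM (limma adjusted p = 0.0125) and Plk1, the polo-like kinase of mitotic entry, from 27.3 ± 2.33 to 20 ± 1.78 RPKM (0.0109). Foxm1, the transcription factor of late cycle genes, fell from 27.7 ± 1.29 to 19.3 ± 3.49 RPKM (limma adjusted p = 0.0171), Aurkb, Aurora B of the centromere, from 29 ± 3.09 to 20.2 ± 4.22 (0.0329), and Ccna2, cyclin A2, from 50.1 ± 2.6 to 35.5 ± 9.37 (0.0458). All 5 had cKO replicate 1 lowest and cKO replicate 3 highest. Ccna2 was at 26.64, 34.65 and 45.31 RPKM in cKO replicates 1 to 3 against 48.53 to 53.06 in WT. It lost its call without any library but cKO replicate 3 (limma adjusted p = 0.101, 0.131 and 0.0971 without WT replicates 1 to 3, and 0.0817 and 0.0923 without cKO replicates 1 and 2). Aurkb lost its call without each WT replicate (limma adjusted p = 0.0832, 0.055 and 0.111), and Foxm1 without WT replicate 3 (0.0637). Without WT replicate 3, 5 of the 14 genes were lower.

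Top2a and Mki67, often used as markers of dividing cells, were higher as deposited, though Mki67 was lower with chromosomes centred. Top2a, the topoisomerase that untangles chromosomes, was at 74.38, 75.59 and 70.81 RPKM in WT and 83.57, 121.79 and 133.11 in cKO replicates 1 to 3, a 1.53-fold rise (limma adjusted p = 0.0229). Mki67, which encodes the Ki-67 protein, was at 29.45, 31.29 and 29.21 RPKM in WT and 33.31, 42.59 and 36.38 in cKO libraries, a 1.25-fold rise (limma adjusted p = 0.0413). Neither gene overlapped between the groups. Top2a lost its call without WT replicates 1, 2 or 3 or cKO replicate 2 (limma adjusted p = 0.0652, 0.0604, 0.0728 and 0.0659), and so did Mki67 (0.119, 0.0745, 0.121 and 0.0857). Mki67 also lost its call when scaled by trimmed mean of M values, median of ratios or quantiles (limma adjusted p = 0.115, 0.119 and 0.107). Top2a stood at 1.62 to 1.86 times the RPKM of Aurka in WT and 5.95 to 8.74 times in cKO libraries.

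Cdc20, the activator of the anaphase-promoting complex, was at 55.9 ± 0.36 and 62 ± 7.19 RPKM, and Birc5, survivin, at 95 ± 3.58 and 100.1 ± 9.37 RPKM. Neither was called, with intervals of the log2 difference from −0.08 to 0.37 and from −0.13 to 0.27. Bub1, a checkpoint kinase like Bub1b, was at 16.24, 18.49 and 17.55 RPKM in WT and 7.9, 10.19 and 17.31 in cKO replicates 1 to 3. With cKO replicate 3 inside the WT range Bub1 was not called (limma adjusted p = 0.0839), and it passed without that library (0.00128) and, scaled by median of ratios, with it (0.0491).

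Short sequences known from late cycle promoters were found in genes of G2 and mitosis that rose and in those that fell. Windows of 250 bases before to 50 after the start were given for 34 of the 43 genes in RefSeq (GRCm38.p6). Both strands were searched, and a gene counted where any of its windows matched (30 of the 34 have 1 window). The CHR, the cell cycle genes homology region bound by DREAM and MuvB complexes, was taken as TTTGAA, or with a C at its centre as TTCGAA. The box bound by NF-Y was taken as its core letters CCAAT. Sites of E2F factors were taken as TTTCGCGC, TTTGGCGC or TTTCCCGC. Of 11 genes of G2 and mitosis with a window, 9 held a CHR match and 10 a CCAAT match, against 21.7% and 41.1% of the 27025 genes in the table. A CHR match was found in 3 of 3 that were higher and 4 of 5 that were lower. E2F matches were found in 6 of 9 licensing and replication genes and 1 of 11 genes of G2 and mitosis, against 2.12% of all genes. Matches of different motifs overlapped at 1 place. A match is a description of the letters and not a site. The 250 bases upstream of 6 genes are shown to compare cyclin B paralogs that went opposite ways (Ccnb1 and Ccnb2), late genes that fell (Cdk1 and Aurka) or rose (Top2a), and a helicase subunit with E2F matches that was not called (Mcm6). They run 5′ to 3′ along the gene, from the minus strand in all 6, at chr13:100786487-100786736, chr9:70421555-70421804, chr10:69352913-69353162, chr2:172370571-172370820, chr11:99024190-99024439 and chr1:128359706-128359955, with matches to any of the motifs in capitals.
Ccnb1: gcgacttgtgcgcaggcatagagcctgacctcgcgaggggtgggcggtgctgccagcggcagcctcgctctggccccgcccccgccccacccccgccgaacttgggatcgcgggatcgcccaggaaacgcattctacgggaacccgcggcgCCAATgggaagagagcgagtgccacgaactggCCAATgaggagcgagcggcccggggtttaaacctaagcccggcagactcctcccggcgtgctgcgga
Ccnb2: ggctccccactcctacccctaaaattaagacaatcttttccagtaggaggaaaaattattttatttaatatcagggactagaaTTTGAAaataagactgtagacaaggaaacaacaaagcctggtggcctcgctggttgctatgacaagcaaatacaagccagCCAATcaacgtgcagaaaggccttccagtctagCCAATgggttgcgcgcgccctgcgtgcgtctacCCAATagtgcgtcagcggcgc
Cdk1: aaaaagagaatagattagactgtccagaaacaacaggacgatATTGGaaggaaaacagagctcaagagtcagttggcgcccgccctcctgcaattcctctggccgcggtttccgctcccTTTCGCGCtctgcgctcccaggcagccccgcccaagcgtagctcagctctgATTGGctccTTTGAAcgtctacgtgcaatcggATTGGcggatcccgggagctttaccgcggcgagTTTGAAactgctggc
Aurka: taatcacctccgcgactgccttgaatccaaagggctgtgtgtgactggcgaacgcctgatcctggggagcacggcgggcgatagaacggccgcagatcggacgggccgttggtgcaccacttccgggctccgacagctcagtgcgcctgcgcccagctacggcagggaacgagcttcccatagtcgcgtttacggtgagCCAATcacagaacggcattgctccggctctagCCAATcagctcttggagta
Top2a: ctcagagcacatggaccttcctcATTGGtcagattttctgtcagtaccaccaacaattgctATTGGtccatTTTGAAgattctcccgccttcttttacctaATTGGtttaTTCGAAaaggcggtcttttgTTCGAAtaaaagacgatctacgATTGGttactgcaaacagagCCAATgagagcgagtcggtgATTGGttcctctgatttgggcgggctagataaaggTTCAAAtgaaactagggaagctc
Mcm6: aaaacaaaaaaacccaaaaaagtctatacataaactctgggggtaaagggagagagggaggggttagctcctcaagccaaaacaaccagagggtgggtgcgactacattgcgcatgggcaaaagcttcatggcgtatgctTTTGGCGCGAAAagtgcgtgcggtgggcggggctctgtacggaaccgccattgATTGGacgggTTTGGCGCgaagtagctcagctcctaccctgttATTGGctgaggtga

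In these letters Ccnb2 and Top2a, which were higher, hold 3 and 6 CCAAT boxes in either orientation in the searched window. Ccnb1, Aurka and Cdk1, which were lower, hold 2, 2 and 3. A CCAAT match was found in 3 of 3 higher and 5 of 5 lower genes of G2 and mitosis with a window. Cdk1 also holds 2 CHR matches and 1 E2F match. Ccnb1 has no CHR match in the window, and the 1 of Aurka lies after the start, outside the bases shown.

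The libraries labelled cKO also differed among themselves. Of the 43 genes cKO replicate 1 was the lowest of its group in 33, cKO replicate 2 in 3 and cKO replicate 3 in 7. Over all tested genes these counts were 4155, 3460 and 4608 of 12223. The median log2 difference from WT over the 43 genes was −0.52, −0.20 and −0.25 in cKO replicates 1 to 3, and 0.08, 0.11 and 0.10 over all tested genes. For G2 and mitosis it was −0.84, −0.41 and −0.21, and cKO replicate 3 was the highest of the group in 11 of 14 genes. For licensing and replication it was −0.52, 0.01 and −0.20, and cKO replicate 2 was the highest in 8 of 11. In cKO replicate 1, 10 of the 11 licensing and replication genes lay below all WT libraries, against 5 in cKO replicate 2 and 7 in cKO replicate 3. The D cyclins, Cdk4, Cdk6, the cyclin E genes and Cdk2 lay outside the WT range on the same side in every cKO library. So did all 7 Rb and E2F genes, and of the 14 G2 and mitosis genes 4 above and 8 below. The trait is not particular to these genes, since 39.2% of all genes tested lay above and 29.8% below in this way.

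Which genes rose also ran with the chromosome they lie on. The median log2 difference of tested genes was 0.64 on chromosome 7, 0.58 on chromosome 12, 0.44 on chromosome 4, 0.42 on chromosome 11 and 0.34 on chromosome 9, and lowest on chromosome 6 at −0.25. On chromosome 7 it was 0.64, 0.66 and 0.59 in cKO replicates 1 to 3. Chromosome 8, which holds Cdt1 and Mcm5, differed between the cKO libraries, at −0.16, 0.12 and −0.19, and replicate 2 was also the highest cKO library for both genes. Replicate 2 was the highest cKO library for 8 of the 11 licensing and replication genes, among them Cdc6 on chromosome 11 and Mcm2 on chromosome 6. The part of the chromosome 8 medians in this order was not tested. All 10 genes that were higher lie on chromosomes with a median above 0, as do 11 of the 21 that were lower and 7 of the 12 not called. Among chromosomes 1 to 19 and X, medians were above 0 on 3, 4, 5, 7, 9, 10, 11, 12, 13, 14 and 17. In that order these held 590, 741, 773, 899, 685, 590, 1005, 433, 495, 424 and 611 of the 12223 tested genes. Such chromosomes are thus common, and the counts of members are to be read beside these numbers. Within 5 Mb of Top2a and of Cdc6 on chromosome 11, the medians of 193 and 196 tested genes were 0.96 and 0.95, above the differences of 0.58 and 0.71 of these genes. Around E2f2 and E2f3, which were also higher, the medians of 116 and 36 genes were below 0, at −0.19 and −0.29. With each chromosome centred on its median the gene still higher was Cdk2 (0.32, limma adjusted p = 0.0319), and 8 of the others that were higher were not called, namely Ccnd1 (0.09, limma adjusted p = 0.343), Cdk4 (0.24, 0.0924), E2f2 (0.45, 0.176), E2f3 (0.15, 0.207), Ccne2 (0.24, 0.342), Cdc6 (0.29, 0.0781), Ccnb2 (0.05, 0.656) and Top2a (0.16, 0.444).

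Centring left most falls and added others. Of the 21 genes that were lower 18 kept their calls, with Cdk6 at −2.80, Ccne1 at −1.75, Aurka at −1.28, Ccnb1 at −1.17 and Plk1 at −1.07 on the log2 scale. Mcm2, Mcm4 and Foxm1 lost theirs (limma adjusted p = 0.129, 0.289 and 0.145). Lower only after centring were E2f8 (−0.87), Rrm1 (−0.72), Tyms (−0.37), Birc5 (−0.35) and Cdc20 (−0.30), and Mki67 turned from 0.30 to −0.34 (limma adjusted p = 0.0323). The opposite directions of Ccnd1 with Ccnd2, Ccne2 with Ccne1 and Ccnb2 with Ccnb1 were therefore called on both sides as deposited and on the lower side alone after centring. The part of these chromosome medians in the results was not tested.

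**Figure D4:**
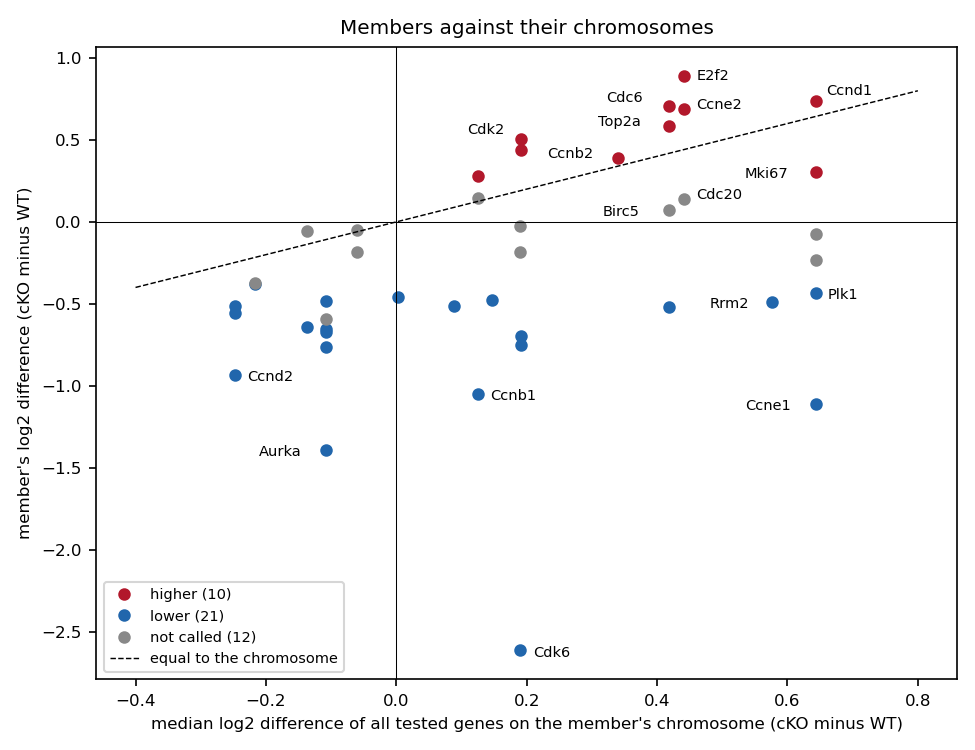
Log2 difference of each of the 43 genes, cKO minus WT (y axis), against the median log2 difference of all tested genes on its chromosome (x axis); red, blue and grey mark higher, lower and not called, and the dashed line marks equality. The 10 red points lie at chromosome medians from 0.12 to 0.64, while Ccne1 at −1.11 and Plk1 at −0.43 lie far under the median of 0.64 of chromosome 7.

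Other genes of the cycle, 129 in 10 lists, gave 35 lower and 29 higher of 128 tested, with a median log2 difference of −0.14. Their shares of 27.3% lower and 22.7% higher stand beside 26.5% and 34.7% of all genes tested, so the share lower was near the background. The counts were 23 and 22 without WT replicate 3, 51 and 30 without cKO replicate 3, and 39 and 14 with chromosomes centred. Of 15 spindle and cytokinesis genes 9 were lower and 1 was higher (5 lower without WT replicate 1 or 2). Kif20a, a kinesin of the central spindle, fell from 84.7 ± 0.8 to 33.3 ± 6.48 RPKM (limma adjusted p = 0.000243), and Racgap1, which sets the cleavage plane, from 71.3 ± 2.49 to 41.5 ± 2.36 (0.000208). Incenp and Cdca8, which form a complex with Aurkb and Birc5, fell from 47.3 ± 4.05 to 22.2 ± 5.31 and from 21.7 ± 0.9 to 12.1 ± 0.94 RPKM (limma adjusted p = 0.00202 and 0.000416). Of 14 kinetochore and checkpoint genes 6 were lower and 1 was higher. Spc25, a subunit of the Ndc80 complex, fell from 32.3 ± 1.58 to 15.4 ± 4.63 RPKM, and Cenpf from 9.78 ± 0.46 to 5.37 ± 0.61 (limma adjusted p = 0.00314 and 0.00127).

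**Figure D5:**
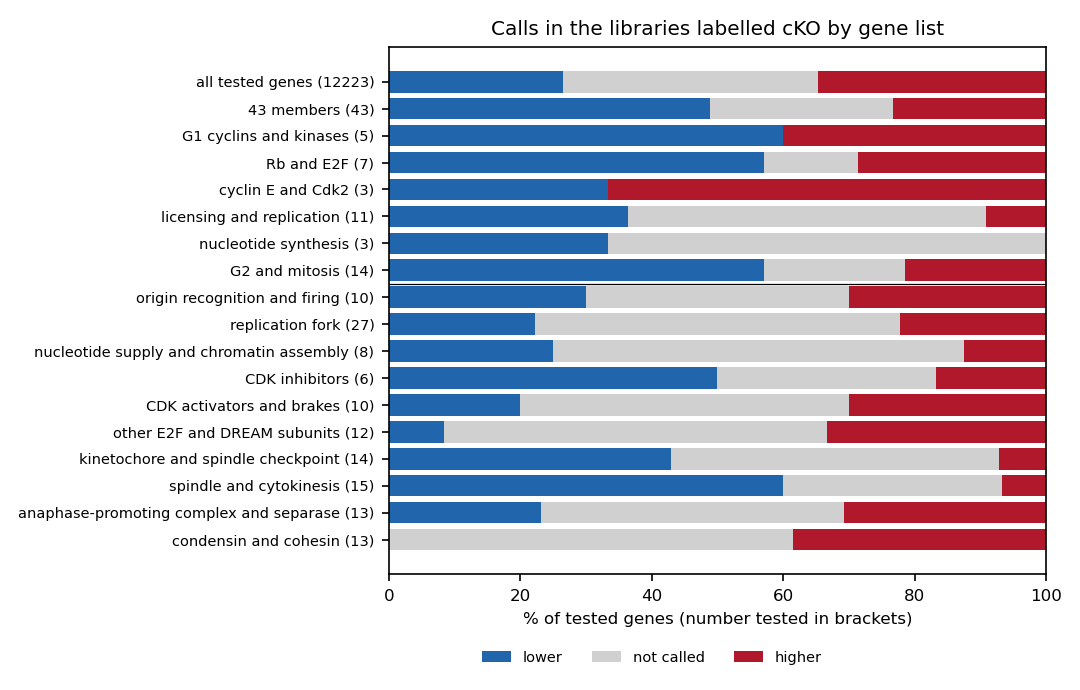
Percent of tested genes called lower (blue), not called (grey) and higher (red) in the cKO libraries (x axis) for all tested genes, the 43 genes, their 6 phase groups and 10 lists of other cycle genes (y axis, number tested in brackets). Spindle and cytokinesis genes hold 9 lower of 15, and condensin and cohesin genes hold 5 higher and 0 lower of 13.

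The genes of sister separation and chromosome structure went both ways. Pttg1, securin, which holds separase inactive until anaphase, fell from 32.5 ± 1.85 to 9.23 ± 1.42 RPKM (log2 difference −1.72, limma adjusted p = 6.1e-05), and separase itself, Espl1, fell from 14.6 ± 0.96 to 6.7 ± 2.19 (0.00364). Of the anaphase-promoting complex, Cdc27 rose from 21.2 ± 1.24 to 46.4 ± 1.23 RPKM and Cdc26 from 30.8 ± 4.03 to 70.2 ± 2.56 (limma adjusted p = 6.2e-05 and 0.000154). In that list 4 of 13, or 30.8%, were higher (2 without WT replicate 1 or 3), 3 were lower and 6 were not called, among them the subunits Anapc1, Anapc2, Anapc4, Anapc10 and Cdc16, named after their values were seen. Of 13 condensin and cohesin genes 5 were higher, a share of 38.5% near the 34.7% of all genes tested, and 0 were lower by limma, also at an unadjusted p under 0.05. The cohesin subunits Stag1, Stag2 and Smc1a rose from 9.88 ± 0.8 to 17.1 ± 0.33, from 21.9 ± 1.44 to 32.3 ± 2.38 and from 37.9 ± 1.14 to 49.8 ± 1.93 RPKM (limma adjusted p = 0.000626, 0.00232 and 0.00317). Without cKO replicate 3, 2 of the list were lower.

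Replication genes outside the 43 went both ways, with the share called in either direction near or under the 61.2% of all genes tested. It was 44.4% for fork genes, 60% for origin recognition and firing, and 37.5% for nucleotide supply and chromatin assembly. Of 27 fork genes 6 were higher and 6 lower (10 lower without cKO replicate 3, and 2 higher and 8 lower with chromosomes centred). Rpa1, the large subunit of the single-strand binding protein, fell from 90.9 ± 1.71 to 38.8 ± 8.59 RPKM (limma adjusted p = 0.000573), while Pold3, a subunit of DNA polymerase delta, rose from 7.66 ± 0.54 to 20.2 ± 2.89 (0.000208). Of 10 genes of origin recognition and firing 3 were higher and 3 lower, and 1 and 1 with chromosomes centred. Without WT replicates 1, 2 and 3 in turn 0 were lower by limma, and 2, 1 and 2 at an unadjusted p under 0.05. Orc3, an origin recognition subunit, rose from 12.4 ± 1.22 to 41 ± 6.03 RPKM (limma adjusted p = 9.3e-05). Of 8 genes of nucleotide supply and chromatin assembly 2 were lower and 1 higher (4 lower without cKO replicate 3 or with chromosomes centred). Chaf1b and Asf1b, histone chaperones that follow the fork, fell from 24.1 ± 1.34 to 8.91 ± 1.18 and from 24.8 ± 2.07 to 14.1 ± 2.13 RPKM (limma adjusted p = 0.000127 and 0.00184), and Dut, which removes dUTP, rose from 87 ± 6.93 to 159.6 ± 34.3 (0.00408).

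The share called in either direction was 66.7% for CDK inhibitors, 41.7% for other E2F and DREAM subunits and 50% for CDK activators and brakes, near or under the 61.2% of all genes tested. Of 6 tested CDK inhibitors 3 were lower and 1 higher (1 lower without WT replicate 2 or 3 or cKO replicate 1 or 2). Cdkn2b, the inhibitor p15 of Cdk4 and Cdk6, was at 17.46, 21.29 and 19.26 RPKM in WT and 5.65, 5.62 and 8.09 in cKO libraries (log2 difference −1.46 ± 0.15 SE, limma adjusted p = 0.000322). Cdkn2c, the inhibitor p18, rose from 21.9 ± 1.75 to 37.7 ± 6.21 RPKM (limma adjusted p = 0.00316; 0.096 with chromosomes centred). Cdkn1c, which stayed under the minimum mean, reached at most 0.35 RPKM. Cdkn1a (p21) was at 85.5 ± 3.08 and 69.9 ± 9.29 RPKM, and its call was lost without any library but cKO replicate 3 (limma adjusted p = 0.0492 with all libraries, 0.121, 0.0906 and 0.142 without WT replicates 1 to 3, and 0.0836 and 0.0877 without cKO replicates 1 and 2). Among other E2F and DREAM subunits 4 of 12 were higher and 1 lower, with 3 and 4 lower without cKO replicates 2 and 3, and 2 higher and 3 lower with chromosomes centred. Without any 1 WT library 0 were lower by limma, and 1 at an unadjusted p under 0.05. The repressor E2f6 rose from 15.6 ± 0.68 to 32.9 ± 4.61 RPKM and the pocket protein Rbl2 (p130) from 8.24 ± 1.1 to 13.7 ± 2.4 (limma adjusted p = 0.000385 and 0.00816), opposite to the falls of E2f1 and Rbl1. Of 10 CDK activators and brakes 3 were higher and 2 lower (1 higher without WT replicate 1 or 3, and 4 lower without cKO replicate 3). With chromosomes centred 0 were higher by limma, also at an unadjusted p under 0.05, and 1 was lower. Mnat1, a subunit of the CDK-activating kinase, rose from 13.9 ± 0.7 to 24 ± 1.21 RPKM (limma adjusted p = 0.000418; 0.138 with chromosomes centred).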

How the data were processed

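RNA sequencing of 6 stranded polyA libraries was deposited by the authors as RPKM, 1 column per library, with no library pooled. Per the submitters' processing notes the tools were cutadapt 2.8, STAR 2.7.1a and RSEM 1.3.1, and the build GRCm38. The annotation and any use of strand in counting are not given in the sources used here. GENCODE M21 paired 55230 of the 55471 identifiers with symbols and positions.

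The fit was limma 3.58.1 (R 4.3.3), run 2-sided with genotype as the only term and a variance prior that follows the mean. Values entered as log2(RPKM + 1), and genes averaging under 1 RPKM were left out. Benjamini-Hochberg adjustment ran over all 12223 genes tested, with a threshold of 0.05. A log2 difference on this scale understates the change of low genes. Folds are ratios of mean RPKM. The procedure was also run on simulated data with few changed genes and no chromosome shifts. That setting differs from these data, so the run does not check the calls given here.

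Depth was estimated from genes with 1 annotated transcript of 800 to 3500 bp, less 150 bp. Of their low values, 82.9 to 93.3% lay within 0.2 of a whole fragment, where chance gives 40%. Counts were not used here.

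All 43 genes are named, and genes named from each other list are among its 4 with the smallest p, with these exceptions. Cdkn1c was not tested, and Anapc1, Anapc2, Anapc4, Anapc10 and Cdc16 were named after their values were seen. Genes overlapping a member and the copy Pcna-ps2 are also named. Members and lists were chosen with earlier results of these data known. Replicate numbers were not used as pairs in the main fit. Figures used matplotlib 3.10.9 with Python 3.11.15, pandas 2.3.3 and numpy 2.4.6.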

Additional observations from a re-analysis of the deposited data

How the results depend on the processing

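Of the 31 calls among the 43 genes, 13 kept direction and threshold in every alternative fit that held the gene: 12 of the 21 lower and 1 of the 10 higher (Cdk2). Cdk6, among the 12, was not in the fit at a minimum mean of 5 RPKM. Asking in addition for a log2 difference of 1 or more in either direction, 0 genes of the list were higher and 4 lower, and 1632 and 1499 of all tested genes. With chromosomes centred, 1 was higher, and Mki67 (−0.34), Birc5 (−0.35) and Cdc20 (−0.30) turned to a lower call. Without 1 library, 5 to 8 of the list were higher and 12 to 23 lower, and 3504 to 4483 and 2626 to 3623 of all tested genes. With the replicate number as a block 8 were higher and 19 lower (3811 and 2938 of all tested genes). Same-numbered libraries did not deviate together (r = −0.017, 0.05 and −0.019 over genes). With 3 libraries per group this cannot exclude that the numbers mark pairs. Other pseudocounts (0.1 and 0.5), minimum means (0.1, 5 or none), variance priors, sample weights and scalings gave 8 to 10 higher and 17 to 24 lower. Without a minimum mean Rb1, E2f3, Mcm4, Ccna2, Aurkb and Mki67 lost their calls (limma adjusted p = 0.057, 0.0582, 0.0534, 0.0796, 0.058 and 0.0577). Ccna2 also lost its call at a minimum mean of 0.1 RPKM (0.0523 by limma, adjusted), with equal column totals (0.056) and with a constant variance prior (0.0566). E2f3 lost its call at a minimum mean of 0.1 RPKM (0.0537). With sample weights E2f3 (0.0636) and Ccne2 (0.0572) lost theirs, while Tyms (0.0434) and Bub1 (0.00697) passed as lower. Mki67 lost its call with a constant variance prior (0.055). The block ended the calls of Rb1, E2f3, Mcm4 and Mki67 (limma adjusted p = 0.0532, 0.092, 0.0564 and 0.0564). Scaling by median of ratios moved the median of all tested genes from 0.09 to −0.0015. Depth limits most the genes with values under 1 RPKM, Cdk6 and E2f2.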
